A study of Bos taurus with 30 samples.

Results

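The genes described here are the 134 cow genes whose gene type in the deposited comparison tables is misc_RNA (112 genes), rRNA (18 genes) or ribozyme (4 genes), out of 27607 counted genes, of which 17468 have a gene type. They include genes for structured non-coding RNAs, namely 7SL, 7SK and Y RNA, the small ribosomal RNAs and the RNAs of RNase P, RNase MRP, telomerase and the vault particle. Most carry as their name a code of Rfam, a database of RNA families, and 63 have codes of other families or no code. RNA was sequenced from primary Bos taurus endometrial cells grown in a microfluidic device, with epithelial cells (Epi) in the upper chamber and stromal-enriched cells (Str) in the lower chamber on the underside of a porous membrane. The cells came from uteri of nonpregnant cows early in the luteal phase, were not transformed or genetically changed, and were kept under flow for 72 hours. In the glucose experiment both cell types received medium with 5 mM or 50 mM glucose. In the insulin experiment the medium held 5 mM glucose and either the vehicle (acetic acid in saline) or insulin, at 1 ng/mL in some devices and 10 ng/mL in others. Each of the 10 groups held 3 libraries, numbered as replicates 1 to 3, which gave 30 libraries. The labels do not say which replicates came from which animals, so p-values measure the spread between these samples.

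Most of the RNAs named above work inside a ribonucleoprotein particle and are transcribed by RNA polymerase III. This does not cover the 63 genes with other codes or none. The 7SL RNA is the scaffold of the signal recognition particle, which takes ribosomes that are making secreted or membrane proteins to the endoplasmic reticulum, and secretion is a main task of both endometrial cell types. The 7SK RNA, together with the proteins HEXIM1, LARP7 and MEPCE, holds the elongation factor P-TEFb (CDK9 with a T-type cyclin) inactive. RNase P matures the 5′ ends of tRNAs, RNase MRP takes part in the processing of ribosomal RNA, Y RNAs bind the Ro60 and La proteins, and the telomerase RNA is the template of telomere synthesis. The 5S and 5.8S RNAs are parts of the large ribosomal subunit, and the 5.8S RNA is made by RNA polymerase I. Genomes hold many near-identical copies of 7SL, 7SK, Y and 5S genes. The authors kept uniquely mapped reads of 75 bases, so a read that fits several copies was lost, and the values of single copies in these families are uncertain. Whether the counting used the strand is not given in the sources used here, so reads of an overlapping gene cannot be told apart from those of the genes described.

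The libraries held 13493503 to 16647701 counted reads in the glucose experiment and 8826470 to 13214728 in the insulin experiment. With 0 counts in a library the true level may be as high as 3 counts, that is 0.180 to 0.340 CPM (counts per 1000000 counted reads), for counting error only. Epithelial and stromal cells were checked with 10 marker genes each, and all 20 were detected. The summed epithelial markers, keratins and claudins among them, were at 6336 to 13981 CPM in epithelial libraries. In stromal libraries they were at 1.23 to 281 CPM in the insulin experiment but at 75.9 to 4258 CPM in the glucose experiment. Among stromal libraries, replicate 3 at 50 mM glucose stood apart, with 4258 CPM of epithelial and 19911 CPM of stromal markers, against 57438 to 72863 CPM of stromal markers in the other glucose stromal libraries. The epithelial library of replicate 2 at 5 mM glucose also stood apart, with 13981 CPM of epithelial markers against 6336 to 7760 CPM in the other glucose epithelial libraries. Stromal markers were at 1044 to 6287 CPM in epithelial libraries. The epithelial genes CLDN3 and ESRP1 had medians of 0 CPM over the insulin stromal libraries. The 3 endothelial markers found summed to at most 76.6 CPM, mainly VWF, and the 2 leukocyte markers to at most 16.3 CPM. The 4 smooth muscle markers summed to 1099 to 7259 CPM in stromal and 16.9 to 533 CPM in epithelial libraries. KDR, PTPRC and CD3E were not analysed here.

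The 134 genes took 1.16% to 2.25% of the counted reads of a library (median 1.81%). A few genes carried nearly all of them. The 7SK gene ENSBTAG00000043250 (code RF00100, mean 6059 CPM over 30 libraries), the RNase P RNA gene ENSBTAG00000044427 (RF00009, 4455 CPM), the 7SL gene ENSBTAG00000049916 (RF00017, 3716 CPM) and the RNase MRP RNA gene ENSBTAG00000042458 (RF00030, 1833 CPM) held 89.9% of the reads of all 134 genes, and the top 10 held 97.2%. RNase P and RNase MRP RNAs are thus among the 4 leading genes, while the 5 Y RNA genes together had a mean of 6.67 CPM and the 16 genes for 5S rRNA 4.90 CPM. The 7SL, 7SK, Y, 5S and 5.8S families made up 66 of the 134 genes and 62.1% of their reads. Of the 134 genes, 70 had at least 10 counts in at least 3 libraries, 49 had fewer than 10 counts in every library, and 69 passed the filter on low counts in at least 1 comparison. CPM values are not divided by length, so they give the share of reads and not the number of molecules of different RNAs.

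Between epithelial and stromal cells of the insulin experiment, 25 of 51 tested genes were called in the vehicle groups (9 higher and 16 lower in epithelial cells), where 55.2% of all 13395 tested genes were called. To be called, a gene needed an adjusted p below 0.05, from the quasi-likelihood test of edgeR and the Benjamini-Hochberg method over all tested genes, and a log2 fold change of more than 0.1 in size. At 1 ng/mL, 32 of 51 were called (10 higher, 22 lower), against 58.9% of all tested genes. At 10 ng/mL, 31 of 52 were called (11 higher, 20 lower), against 54.4%. In the glucose experiment, 4 of 57 were called at 5 mM (1 higher, 3 lower), against 21.1% of all genes (10.5% higher, 10.6% lower), and 6 of 57 at 50 mM (1 higher, 5 lower), against 17.3% (6.39% higher, 10.9% lower). The insulin shares lie near the background, so the number of calls is not in itself a result about these genes, and the glucose shares were not tested against it. Among all genes the calls of the 3 insulin comparisons were spread evenly over both directions (27.8% higher and 27.3% lower in the vehicle groups, 29.6% and 29.3% at 1 ng/mL, 27.1% and 27.3% at 10 ng/mL). The medians of the tested genes were -0.17, -0.15 and -0.36 on the log2 scale in the 3 insulin comparisons and -0.29 and -0.19 at 5 and 50 mM glucose, against medians of all genes between -0.01 and 0.03. The counts depended on single replicates, and so did those of all genes. Without replicate 1 the count was 12 in the vehicle groups and 0 at 50 mM glucose, without replicate 3 it was 16 in the vehicle groups, and without replicate 2 it was 20 at 10 ng/mL. In these 4 fits 5195 of 13451, 0 of 14019, 5762 of 13510 and 4940 of 13431 genes were called in all. At 5 mM glucose it was 7 without replicate 1 and 9 without replicate 2, which removes the epithelial library that stood apart, against 3219 and 3362 of all 14165 genes. At 50 mM it was 8 without replicate 3, which removes the stromal library that stood apart, against 3897 of all 14010 genes.

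The 7SL family was higher in stromal than in epithelial cells in the insulin experiment. Its summed level ranged from 2861 to 4356 CPM over the 9 epithelial libraries (median 3492) and from 5481 to 9178 CPM over the 9 stromal ones (median 6663), and the ranges did not overlap. In such samples a smaller number of cells of a type and less RNA per cell cannot be told apart. The leading 7SL gene ENSBTAG00000049916 had 3338, 3014 and 2682 CPM in the epithelial vehicle libraries and 5677, 3849 and 5719 CPM in the stromal ones (replicates 1, 2 and 3). Every stromal value lay above every epithelial value. Its log2 fold change, epithelial minus stromal, was -0.82 in the vehicle groups (standard error 0.217, adjusted p = 0.0303), -0.95 at 1 ng/mL (standard error 0.146, adjusted p = 0.00306) and -0.92 at 10 ng/mL (standard error 0.141, adjusted p = 0.00642). The vehicle call was lost without replicate 1 or 3 (-0.88 and -0.57). Of the 15 copies, 14 were tested, and all 14 had negative fold changes in each insulin comparison. Of these, 10 were called in the vehicle groups, 13 at 1 ng/mL and 14 at 10 ng/mL, none of them as higher in epithelial cells. Their medians were -1.20, -1.49 and -1.36. Among all genes 27.3%, 29.3% and 27.3% were called as lower. As the copies are alike and their single values uncertain, they are not 14 separate observations.

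**Figure D1:**
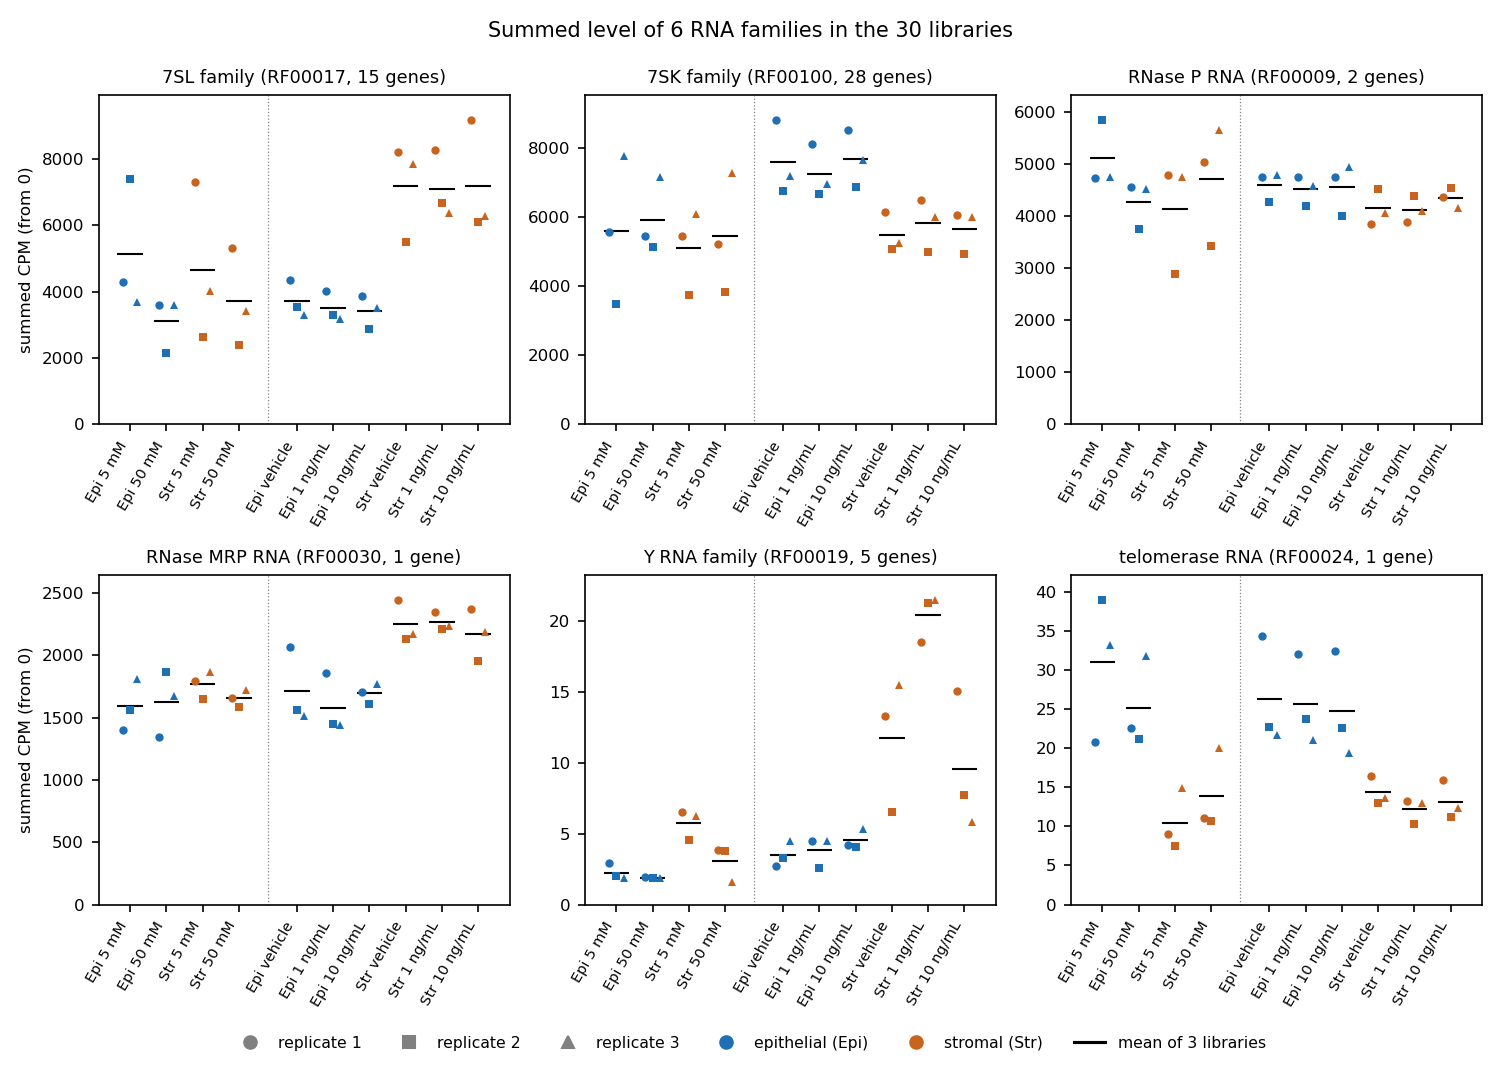
Summed level of 6 RNA families in CPM (vertical axes from 0) in each of the 30 libraries, by group on the horizontal axis, with 1 point per library, its shape giving the replicate, its colour the cell type, and a line at the mean of 3. In the insulin experiment (right of the dotted line) the 7SL family lies between 2861 and 4356 CPM in epithelial libraries and between 5481 and 9178 CPM in stromal ones, while RNase P RNA overlaps between cell types.

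With glucose the 7SL family did not separate the cell types. It summed to 2166 to 7394 CPM in the 6 epithelial and 2386 to 7285 CPM in the 6 stromal libraries. ENSBTAG00000049916 had 3608, 6298 and 3210 CPM in epithelial cells at 5 mM and 5785, 1597 and 3187 CPM in stromal cells, so that replicate 2 went opposite to replicate 1. The epithelial library of 6298 CPM is the one with high epithelial markers. The stromal library of 1597 CPM had 6891 CPM of smooth muscle markers, against 2068 and 2917 CPM in replicates 1 and 3. The part of either difference in the 7SL values was not tested. The fold change of ENSBTAG00000049916 was 0.18 (standard error 0.647, adjusted p = 0.877 by edgeR) with all 3 replicates. It was -0.59 without replicate 2, which removes both of these libraries. At 50 mM it was -0.28 (standard error 0.255, adjusted p = 0.479). Of the 14 tested copies, 10 were negative at 5 mM and 13 at 50 mM, with medians of -0.40 and -0.38, and 1 and 2 of them were called, respectively, all lower in epithelial cells. Among all genes 10.6% and 10.9% were called as lower.

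The copy ENSBTAG00000047789 was lower in epithelial cells in all 5 comparisons. It had 138, 106 and 88.3 CPM in the epithelial vehicle libraries and 1003, 775 and 909 CPM in the stromal ones, and over all insulin libraries 81.9 to 138 CPM against 730 to 1112 CPM. The 2 ranges lie far apart at every dose. Its fold change was -3.11 (standard error 0.202, adjusted p = 0.00106 by edgeR) in the vehicle groups, -2.98 (standard error 0.178, adjusted p = 0.000149) at 1 ng/mL and -3.36 (standard error 0.146, adjusted p = 0.00124) at 10 ng/mL. At 5 mM glucose it was -1.62 (standard error 0.436, adjusted p = 0.0473) and at 50 mM -1.58 (standard error 0.156, adjusted p = 0.00396). The call at 5 mM was lost without replicate 3 (-1.22) and the call at 50 mM without replicate 1 (-1.53), and neither was made without the replicate block (-1.40 and -1.59). With the size factors of DESeq2 the 5 mM value was -1.61 and was not called. In the insulin experiment the copy differed more between the cell types than the leading copy did. Its level as a percentage of that of ENSBTAG00000049916 was 2.83% to 4.28% in the insulin epithelial libraries and 13.0% to 20.2% in the stromal ones, and it was 1.97% to 6.74% and 6.08% to 24.8% in the glucose libraries. The lowest of the stromal glucose values, 6.08%, belonged to the replicate 3 library at 50 mM with 4258 CPM of epithelial markers.

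**Figure D2:**
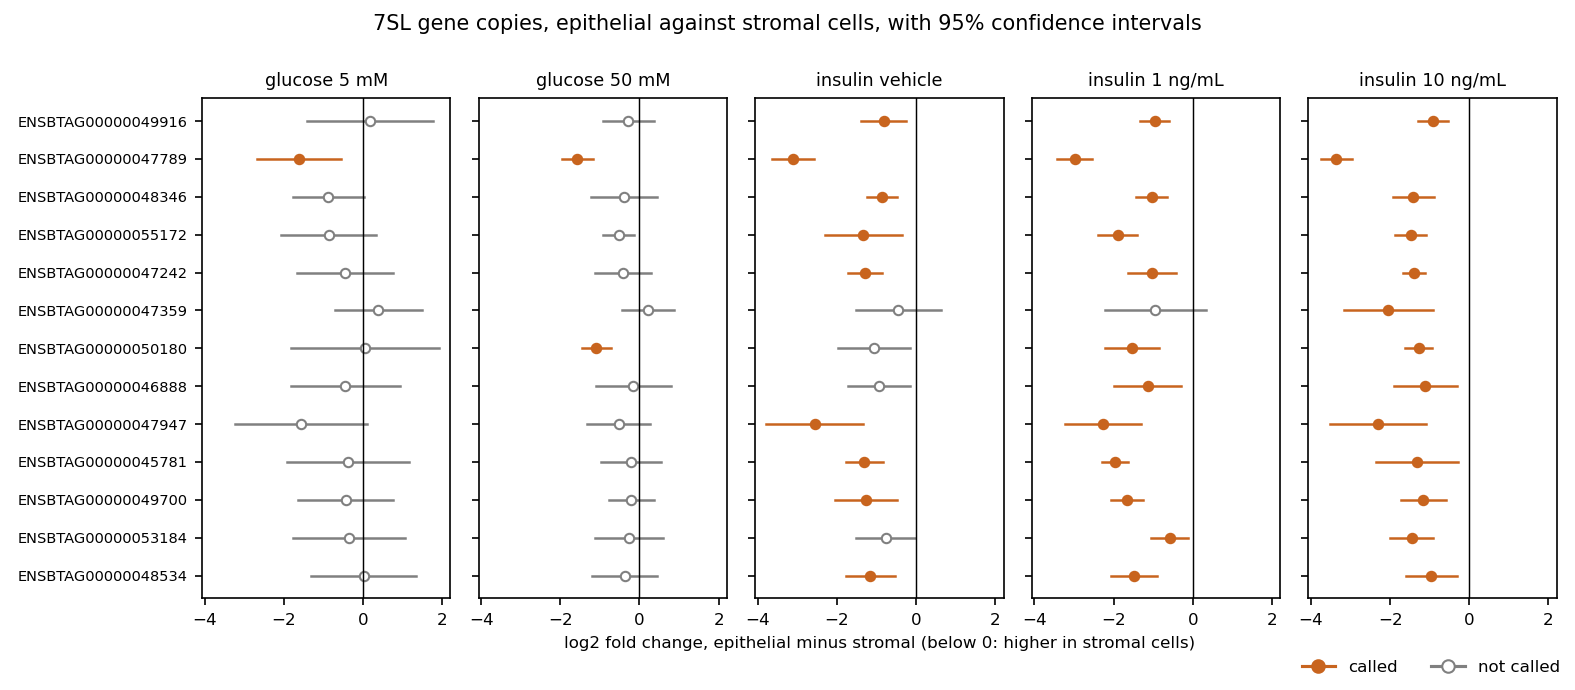
Log2 fold change of 13 of the 14 tested 7SL gene copies between epithelial and stromal cells (horizontal axes, negative where stromal cells are higher) in the 5 comparisons, with 95% confidence intervals as bars, ordered by mean level and filled where called. All 13 points lie below 0 in the 3 insulin comparisons, and ENSBTAG00000047789 lies lowest there, between -3.36 and -2.98.

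Among the other 7SL copies, ENSBTAG00000047947 had fold changes of -2.57, -2.26 and -2.30 in the vehicle, 1 ng/mL and 10 ng/mL comparisons, ENSBTAG00000055172 of -1.34, -1.90 and -1.48, ENSBTAG00000045781 of -1.31, -1.96 and -1.32, and ENSBTAG00000047242 of -1.29, -1.02 and -1.40. Each was called in all 3, with adjusted p of at most 0.044 by edgeR. ENSBTAG00000047947 varied between replicates, with 10.6, 20.6 and 110 CPM in the stromal vehicle libraries. Its vehicle counts were 10, 84 and 156 in epithelial and 121, 228 and 1018 in stromal libraries (replicates 1, 2 and 3). The groups overlapped in CPM, with epithelial replicate 3 above stromal replicate 1. ENSBTAG00000049700 was at 4.65 to 7.35 CPM in the 9 insulin epithelial and 10.2 to 18.3 CPM in the 9 stromal libraries, with fold changes of -1.26, -1.66 and -1.16, and ENSBTAG00000048534 was at 1.79 to 3.01 and 2.88 to 7.19 CPM, with -1.15, -1.47 and -0.96. Both were called at each dose. ENSBTAG00000050180 was called at 50 mM glucose (-1.10, standard error 0.146, adjusted p = 0.00965), at 1 ng/mL (-1.53) and at 10 ng/mL (-1.28). The copies thus shared a direction but differed in size, from -0.45 to -3.11 in the vehicle groups.

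Of the 6 signal recognition particle proteins, SRP14, SRP19 and SRP54 were lower in epithelial cells in all 3 insulin comparisons, while SRP9, SRP68 and SRP72 were called in none. Among all genes 55.2%, 58.9% and 54.4% were called in the vehicle, 1 ng/mL and 10 ng/mL comparisons, and 27.3%, 29.3% and 27.3% as lower. The number of calls is thus not in itself a result about these 6. SRP14, which with SRP9 forms the part of the particle that slows translation, had fold changes of -1.02 to -0.73 over its 4 calls, the fourth at 50 mM glucose. SRP54, which binds the signal peptide, had -0.68 to -0.62, and SRP19, which helps to assemble the particle, -0.996 to -0.660. The median of the 6 was -0.39, -0.38 and -0.43 in the vehicle, 1 ng/mL and 10 ng/mL comparisons, against medians of all tested genes of 0.00, 0.00 and -0.01. The median was -0.75 at 5 mM glucose, with no call, and at 50 mM -0.21 with 1 call. Among all genes 21.1% and 17.3% were called there.

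The 7SK RNA did not pass the test between cell types. Its leading gene ENSBTAG00000043250, with 98.4% of the family's reads, had 8697, 6648 and 7076 CPM in the epithelial vehicle libraries and 6058, 5023 and 5161 CPM in the stromal ones. At each insulin dose every epithelial value was above every stromal value, but the fold change was 0.38 with the vehicle (standard error 0.165, adjusted p = 0.111 by edgeR), 0.22 at 1 ng/mL (standard error 0.164, adjusted p = 0.302) and 0.34 at 10 ng/mL (standard error 0.157, adjusted p = 0.133). Their 95% intervals include 0. DESeq2's Wald test called the gene in the vehicle groups (0.39). At 5 mM glucose the fold change was -0.13 (standard error 0.369, adjusted p = 0.843), at 50 mM it was 0.00 (standard error 0.233, adjusted p = 0.994), and the groups overlapped. The ratio of 7SK to 7SL family reads, which needs no library total, was 1.87 to 2.38 in the insulin epithelial and 0.648 to 0.945 in the insulin stromal libraries, with no overlap, and 0.460 to 2.33 and 0.733 to 2.10 in the glucose libraries. Further 7SK copies were called as higher in epithelial cells, ENSBTAG00000043482 at vehicle (1.20, adjusted p = 0.0268 by edgeR) and 10 ng/mL (1.19, adjusted p = 0.0169), and ENSBTAG00000042618 at 1 ng/mL (0.62, adjusted p = 0.0285). ENSBTAG00000043639 was called as lower only at 1 ng/mL (-0.56, adjusted p = 0.0178 by edgeR). With the vehicle it leaned the other way, with 732, 452 and 582 counts in epithelial and 493, 168 and 415 counts in stromal libraries.

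Among the 7 proteins of the 7SK particle and P-TEFb, the cyclin gene CCNT1 was higher in epithelial cells in all 3 insulin comparisons, with fold changes of 0.75 to 0.94. CCNT2 was called in 2 (0.29 and 0.39), CDK9, the kinase of P-TEFb, in 2 (both 0.36), and HEXIM1, its inhibitor, in 1 at 50 mM glucose (0.60). HEXIM2 was called as lower at 1 ng/mL (-0.92), and LARP7 and MEPCE were called in no comparison. The median of the 7 was 0.25, 0.34 and 0.24 in the 3 insulin comparisons. In these, 2, 3 and 2 of the 7 were called as higher, against 27.8%, 29.6% and 27.1% of all genes. At 50 mM glucose it was 1, against 6.39%. The number of calls is thus not in itself a result about this list.

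The RNA of RNase P did not pass the test between cell types in any comparison. ENSBTAG00000044427 had 4757, 4265 and 4788 CPM in the epithelial vehicle libraries and 3858, 4526 and 4069 CPM in the stromal ones, which overlap. Its fold changes between cell types were 0.07, 0.02 and -0.04 in the insulin experiment (standard errors 0.177, 0.159 and 0.164) and 0.11 and -0.26 at 5 and 50 mM glucose (standard errors 0.435 and 0.227), with adjusted p between 0.455 and 0.918 by edgeR. The 95% interval in the vehicle groups was -0.39 to 0.54. The RNA of RNase MRP, which shares most of its proteins with RNase P, was lower in epithelial cells. ENSBTAG00000042458 had 1857, 1448 and 1439 CPM in epithelial and 2346, 2214 and 2236 CPM in stromal cells at 1 ng/mL. The groups did not overlap at any insulin dose. The fold change was -0.64 (standard error 0.148, adjusted p = 0.0140 by edgeR) at 1 ng/mL, -0.46 (standard error 0.126, adjusted p = 0.0334) at 10 ng/mL and -0.48 (standard error 0.165, adjusted p = 0.0605) in the vehicle groups, the last not called by edgeR but called by DESeq2 (-0.47). The call at 1 ng/mL was lost without replicate 3 (-0.55). The call at 10 ng/mL was lost without any 1 of the replicates (-0.48 to -0.44). With glucose it was -0.38 and -0.19, with adjusted p of 0.511 and 0.593. RNase MRP RNA was 31.4% to 43.4% of RNase P RNA in the insulin epithelial libraries and 43.2% to 63.5% in the stromal ones, ranges that overlap slightly. Of the 10 protein genes of both enzymes, 9 were tested. RPP21 and RPP40 were lower in epithelial cells in the 3 insulin comparisons (-0.99 to -0.84 and -1.10 to -0.95), POP4 in 1 (-0.65), and none was called in the glucose experiment. In the vehicle, 1 ng/mL and 10 ng/mL comparisons 2, 3 and 2 of the 9 were called as lower, against 27.3%, 29.3% and 27.3% of all genes. The number of calls is thus not in itself a result about this list.

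The telomerase RNA gene ENSBTAG00000043157 (RF00024) was higher in epithelial cells. It had 34.3, 22.7 and 21.8 CPM in the epithelial vehicle libraries and 16.4, 12.9 and 13.7 CPM in the stromal ones. Each comparison, glucose included, had no overlap between cell types. It was higher by 0.78 with the vehicle (standard error 0.162, adjusted p = 0.0147 by edgeR), by 0.95 at 1 ng/mL (standard error 0.176, adjusted p = 0.00625), by 0.80 at 10 ng/mL (standard error 0.162, adjusted p = 0.0143) and by 0.74 at 50 mM glucose (standard error 0.166, adjusted p = 0.0406). The 5 mM value was 1.35 (standard error 0.423, adjusted p = 0.0755), which was not called, and 0.93 without replicate 2, whose epithelial library stood apart. In glucose stromal cells the highest value, 20.02 CPM, belonged to the replicate 3 library at 50 mM with the high epithelial markers, and the others had 7.48 to 14.9 CPM. The call at 1 ng/mL held without each replicate in turn (0.81 to 1.16). The vehicle call was lost without replicate 1 (0.59), and the call at 10 ng/mL without replicate 1 (0.66) or 2 (0.76). The call at 50 mM was lost without replicate 1 (0.74) or 2 (0.67) and without the replicate block (0.72). The vault RNA (RF00006) had 0.218 CPM, near the limit that a count of 0 allows, and was not tested. The 3 vault protein genes were called as higher in epithelial cells at all insulin doses, MVP by 0.45 to 0.57, PARP4 by 0.94 to 1.02 and TEP1, which is also a telomerase-associated protein, by 1.15 to 1.22. Among all genes 27.8%, 29.6% and 27.1% were called as higher there, and the share of this short list was not tested against that.

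The Y RNA genes were low in count but higher in stromal cells in the insulin experiment. The 5 genes summed to 2.55 to 5.35 CPM in the epithelial and 5.86 to 21.5 CPM in the stromal libraries. The leading one, ENSBTAG00000043086, had 1.57, 2.27 and 3.19 CPM in the epithelial vehicle libraries and 5.77, 3.53 and 6.28 CPM in the stromal ones. All stromal values lay above the epithelial ones. Its fold change was -1.24 (standard error 0.297, adjusted p = 0.0221 by edgeR) in the vehicle groups, -2.26 (standard error 0.263, adjusted p = 0.00119) at 1 ng/mL and -0.61 (standard error 0.283, adjusted p = 0.129) at 10 ng/mL. At 5 mM glucose it was -1.55 (standard error 0.487, adjusted p = 0.0765). More copies were called, ENSBTAG00000042676 at all 3 doses (-2.55, -3.04 and -2.07) and ENSBTAG00000043461 at vehicle and 1 ng/mL (-2.58 and -3.47). Their stromal levels were 0.634 to 5.63 CPM in the insulin experiment, so each rests on few reads. ENSBTAG00000042676 lost its vehicle call without replicate 1 (-2.06) and its call at 10 ng/mL without replicate 1 (-1.38) or 2 (-1.89). The vehicle call of ENSBTAG00000043086 was lost without replicate 1 (-0.97) or 3 (-1.28). The 2 tested genes of Y RNA binding proteins were called in no comparison.

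Of the 18 ribosomal RNA genes, only 2 were tested between cell types, and neither was called. The 5.8S gene ENSBTAG00000048608 (RF00002) had 82.8, 117 and 107 CPM in the epithelial and 153, 76.9 and 137 CPM in the stromal vehicle libraries. Its fold changes over the 5 comparisons lay between -0.62 and 0.07, with adjusted p of at least 0.416 by edgeR, and their direction changed with single replicates. Over the glucose libraries it ranged from 57.5 to 295 CPM, with no order by cell type. Of the 16 genes for 5S rRNA, 1 was tested, ENSBTAG00000037087, at 0.281 to 4.37 CPM. Its fold change was -0.88 at 5 mM (95% interval -2.10 to 0.34) and -0.86 at 50 mM glucose (-1.91 to 0.19) and lay between 0.21 and 0.39 in the insulin comparisons, with adjusted p of at least 0.202 by edgeR. Of the 15 tested genes of RNA polymerase I and its factors, 4 were higher and 6 lower in epithelial cells in the vehicle groups, 4 and 4 at 1 ng/mL, and 4 and 4 at 10 ng/mL. Of the 26 tested genes of RNA polymerase III and its factors, 3 were higher and 8 lower in the vehicle groups, 3 and 7 at 1 ng/mL, and 3 and 6 at 10 ng/mL, with medians of -0.26, -0.20 and -0.25. Among all genes 27.8% were higher and 27.3% lower in the vehicle groups, 29.6% and 29.3% at 1 ng/mL, and 27.1% and 27.3% at 10 ng/mL, so the number of calls is not a result about either list. Examples are the polymerase III subunit genes POLR3G (-1.48 to -1.18), POLR3GL (-1.59 to -1.33) and POLR3K (-0.89 to -0.82), which were lower in epithelial cells, and the factor genes GTF3C2 (0.85 to 0.96), SNAPC1 (1.08 to 1.38) and BDP1 (0.42 to 0.54), which were higher. None of the genes of either list was called in the glucose experiment.

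The remaining 63 genes carry other codes or none, and the sources used here do not say which longer RNA, if any, each belongs to. They held the largest contrasts between cell types, on low counts. ENSBTAG00000048350 (RF01872) was called as lower in epithelial cells in all 5 comparisons. It had 0.0784, 0 and 0 CPM in the epithelial and 2.45, 2.35 and 7.48 CPM in the stromal vehicle libraries. Its counts were 1 and 123 in the vehicle groups, a ratio of 128 (95% counting interval 22.6 to 5111), 2 and 143 at 1 ng/mL, a ratio of 64.4 (17.5 to 537), and 0 and 134 at 10 ng/mL, at least 34.9-fold higher in stromal cells against 3 counts over the group. Between the glucose groups its fold changes were -5.37 (standard error 0.737, adjusted p = 0.00749 by edgeR) at 5 mM and -3.94 (standard error 0.592, adjusted p = 0.0141) at 50 mM. The lowest stromal value, 3.80 CPM against 6.41 and 11.0 CPM at 50 mM, was in the replicate 3 library that stood apart. The call at 50 mM was lost without replicate 1 (-3.56). ENSBTAG00000054908 (RF02146) was at 0 counts in all 9 insulin epithelial libraries and at 22, 29 and 41 counts in the stromal groups, at least 7.65-fold, 8.71-fold and 10.7-fold higher. It passed the low-count filter at 10 ng/mL and in both glucose comparisons, where it was called. ENSBTAG00000054389 (RF02142) had 2 and 55 counts at 1 ng/mL, a ratio of 24.8 (6.54 to 210).

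Other coded genes were higher in epithelial cells. ENSBTAG00000048509 (RF01977) had 2.27, 1.55 and 1.41 CPM in the epithelial and 0, 0 and 0.108 CPM in the stromal vehicle libraries, with 59 and 1 counts and a ratio of 56.5 (9.76 to 2270). It was called in the 3 insulin comparisons and at 5 mM glucose (2.88, standard error 0.611, adjusted p = 0.0228 by edgeR). ENSBTAG00000054758 (RF01881) had 7.76, 9.51 and 9.85 CPM against 4.46, 3.53 and 2.93 CPM in the vehicle groups and fold changes of 1.23, 1.24 and 1.26 in the insulin comparisons, with adjusted p of at most 0.00992. All 3 calls held without each replicate in turn (1.10 to 1.43). ENSBTAG00000050793 (RF02166) and ENSBTAG00000054118 (RF02165) were called in the 3 insulin comparisons with 1.47, 1.74 and 2.52 and with 1.42, 1.16 and 1.53, ENSBTAG00000052264 (RF01979) with 3.41, 4.45 and 3.44, and ENSBTAG00000054514 (RF01955) and ENSBTAG00000051307 (RF01957) with 0.62 to 1.05. The RF01955 and RF01957 genes were not called with glucose and were not higher in epithelial cells at 5 mM. There RF01955 had 5.39, 11.0 and 9.18 CPM in epithelial and 13.5, 8.05 and 15.0 CPM in stromal libraries. RF01957 had 3.99, 6.15 and 7.33 CPM against 9.97, 4.78 and 7.69 CPM. ENSBTAG00000052765 (RF02167) was called at 1 and 10 ng/mL (1.57 and 1.72) and ENSBTAG00000050166 (RF02169) at 10 ng/mL (1.41), both at levels of at most 3.40 CPM. Several coded genes did not pass the test in any comparison. Among them ENSBTAG00000052781 (RF01891) had 4.96 to 10.1 CPM over all 30 libraries, with fold changes of -0.30 to -0.13 between cell types, and ENSBTAG00000051464 (RF02271), the leading gene of a family of 12, had 1.44 to 3.66 CPM, with -0.35 to 0.14. ENSBTAG00000054696 (RF01883) had 0.889 to 5.98 CPM, with fold changes of -1.11 to 0.04, and ENSBTAG00000054675 (RF02216) 0.769 to 3.94 CPM, with -0.53 to 0.91. The leading genes ENSBTAG00000054231 (RF02187), ENSBTAG00000051148 (RF02045), ENSBTAG00000051388 (RF02190), ENSBTAG00000048901 (RF02188) and ENSBTAG00000053973 (no code) had means of 0.370 to 0.762 CPM and passed the low-count filter in none of the insulin comparisons between cell types. The most abundant coded gene, ENSBTAG00000048699 (RF01871), was slightly lower in epithelial cells, with 223, 226 and 241 CPM against 329, 277 and 265 CPM in the vehicle groups. Its fold change was -0.41, -0.40 and -0.41 in the 3 insulin comparisons (standard errors 0.107, 0.104 and 0.118), and the vehicle and 1 ng/mL calls were lost without any 1 replicate. At 5 mM glucose it was -2.17 (adjusted p = 0.176), or -0.99 without replicate 2.

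**Figure D3:**
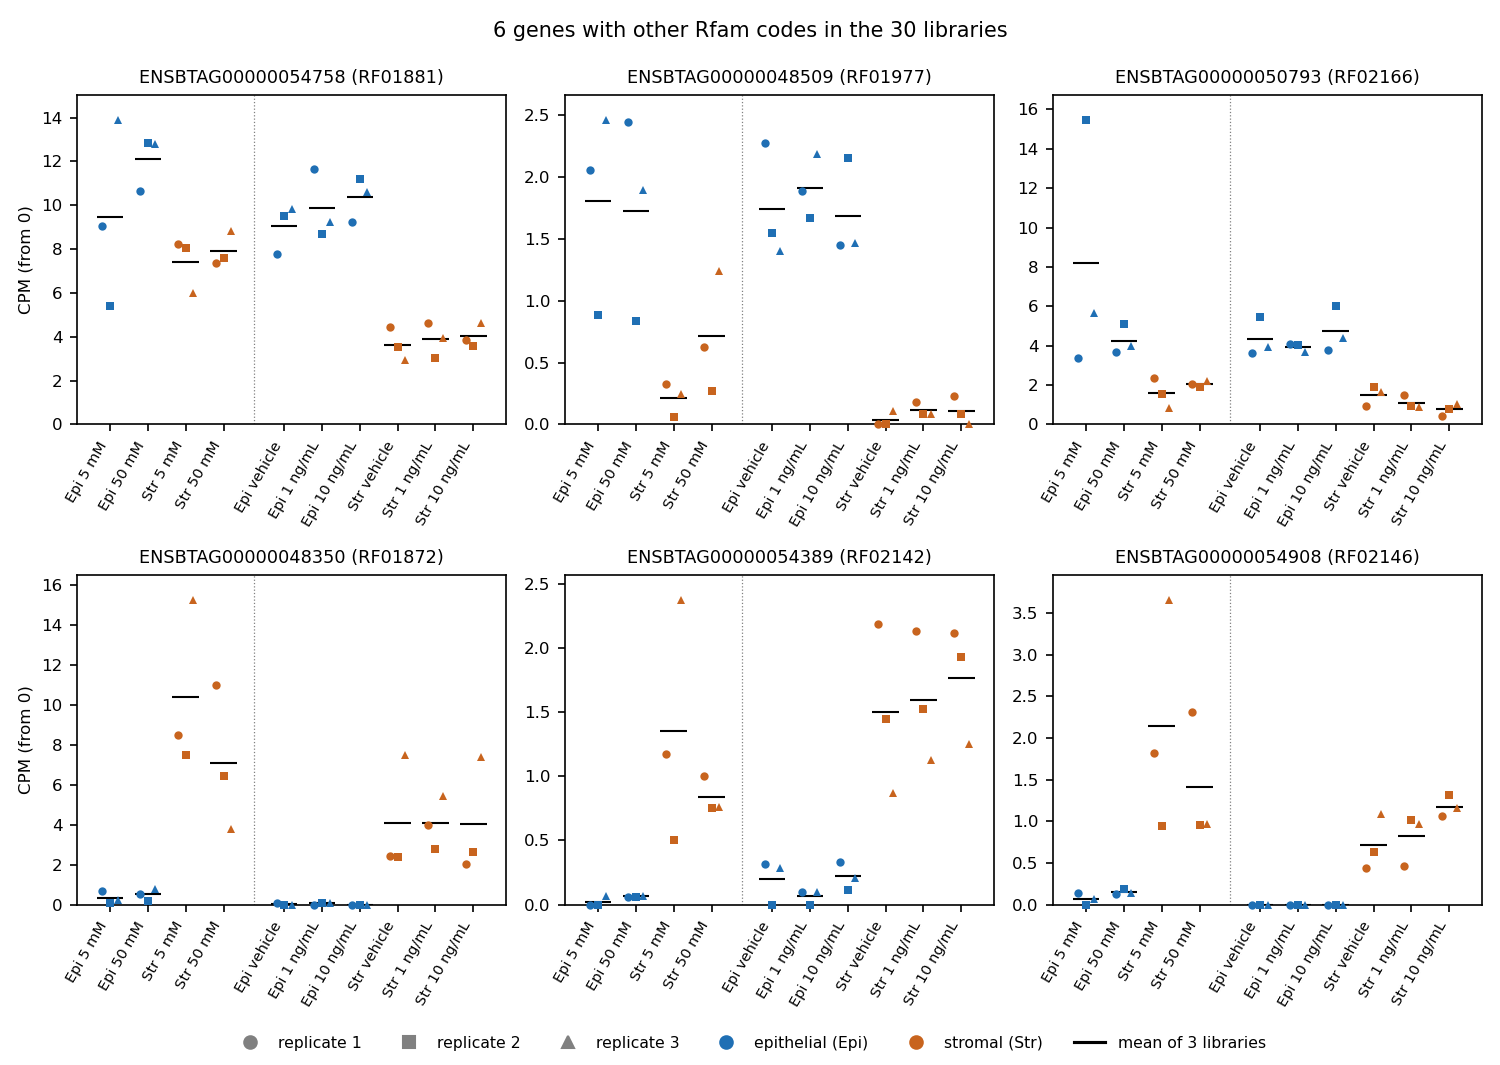
Level of 6 genes with other Rfam codes in CPM (vertical axes from 0) in each of the 30 libraries, by group, with 1 point per library, its shape giving the replicate, its colour the cell type, and a line at the mean of 3. The upper 3 genes are higher in the insulin epithelial and the lower 3 in the stromal libraries, where RF02146 is at 0 in all 9 epithelial libraries.

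The epithelial library of replicate 2 at 5 mM glucose differed from its group in many of these genes. ENSBTAG00000048699 was at 9.19 CPM there against 248 and 341 CPM in replicates 1 and 3, and the second RF01871 gene, ENSBTAG00000049773, at 1.19 against 11.2 and 18.3 CPM. ENSBTAG00000052295 (RF01882) was at 0.519 against 6.19 and 8.36 CPM, and ENSBTAG00000051325 (RF01892) at 1.26 against 7.32 and 6.23 CPM. The leading 7SK gene was at 3398 against 5480.5 and 7607 CPM, while the leading 7SL gene was at 6298 against 3608 and 3210 CPM. RNase MRP RNA lay between the others, at 1560.5 CPM. The same replicate at 50 mM showed no such values, with 389 CPM of ENSBTAG00000048699. This library is also the one with 13981 CPM of epithelial markers, and the part of that difference was not tested.

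Between 50 mM and 5 mM glucose, no gene of the 134 was called in either cell type, of 56 tested in epithelial and 57 in stromal cells, and 0% of all tested genes were called (edgeR). At an unadjusted p under 0.05 there were 1 and 6 of them, respectively, against 212 and 664 of all tested genes. DESeq2's Wald test called 0 of the 134 genes in epithelial cells, as of all genes, and 1 in stromal cells, where it called 201 of all 16387 (198 higher, 3 lower). Of the 14 tested 7SL copies, 12 were lower at 50 mM in epithelial and 14 in stromal cells, with medians of -0.52 and -0.49, against 0.01 and -0.03 for all genes. Both comparisons hold a library that stood apart, replicate 2 at 5 mM in epithelial and replicate 3 at 50 mM in stromal cells. The epithelial family sum went from 7394 to 2166 CPM in replicate 2, but from 4299 to 3591 CPM in replicate 1 and from 3677 to 3598 CPM in replicate 3. The stromal sums went from 7285 to 5313, from 2627 to 2386 and from 4016 to 3426 CPM in replicates 1, 2 and 3. Epithelial markers in the same stromal libraries went from 490 to 1126, from 325 to 923 and from 75.9 to 4258 CPM. The part of this rise in the stromal 7SL values was not tested. The leading copy ENSBTAG00000049916 had 3608, 6298 and 3210 CPM at 5 mM and 2952, 1571 and 3171 CPM at 50 mM in epithelial cells. It was lower at 50 mM in each pair, mainly in replicate 2. In stromal cells it had 5785, 1597 and 3187 CPM at 5 mM and 4213, 1635 and 2813 CPM at 50 mM. The 5.8S gene ENSBTAG00000048608 had 295, 271 and 116 CPM in stromal cells at 5 mM and 98.1, 198 and 61.4 CPM at 50 mM, lower in 3 of 3 pairs. Its fold change of -1.05 (standard error 0.225, adjusted p = 0.696 by edgeR) did not pass the correction. The glucose effects of the 2 cell types were also compared directly, and of 67 tested genes none differed between them (0% of all genes were called), with 1 at an unadjusted p under 0.05, against 1102 of all 14640.

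Between insulin doses, 5 of the 134 genes were called, all by small or moderate amounts. In epithelial cells at 10 ng/mL against the vehicle, 2 of 47 tested genes were called, both lower, where 0.124% of all 12853 tested genes were called (0.07% higher and 0.0545% lower). The 7SL copy ENSBTAG00000048346 had 296, 235 and 275 CPM with the vehicle and 118, 162 and 225 CPM at 10 ng/mL. The groups did not overlap, and the drop was largest in replicate 1 and smallest in replicate 3. Its fold change was -0.71 (standard error 0.0915, adjusted p = 0.000101 by edgeR), or -0.40 without replicate 1. The 5.8S gene ENSBTAG00000048608 had 82.8, 117 and 107 CPM with the vehicle and 69.3, 78.1 and 89.8 CPM at 10 ng/mL. It was lower in 3 of 3 pairs, with overlapping groups and a log2 value of -0.37 (standard error 0.0566, adjusted p = 0.000494 by edgeR). With 1 replicate left out the value was between -0.45 and -0.26. Stromal cells showed a lower value of this gene in each pair as well, with -0.72 (standard error 0.224), which did not pass the correction of edgeR (adjusted p = 0.999). No gene was called in epithelial cells at 1 ng/mL against the vehicle (47 tested) or at 10 against 1 ng/mL (48 tested), where 0% of all genes were called. At an unadjusted p under 0.05 there were 7 and 9, respectively, against 383 of all 12966 and 572 of all 12873 genes, and DESeq2 called 0 in both, as of all genes.

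In stromal cells at 1 ng/mL against the vehicle, 2 of 49 tested genes were called, both higher, where 0.0157% of all 12711 genes were called, so that both calls of that comparison fell on the 134 genes. The Y RNA gene ENSBTAG00000043086 had 5.77, 3.53 and 6.28 CPM with the vehicle, 11.0, 11.9 and 13.1 CPM at 1 ng/mL and 7.72, 4.38 and 2.98 CPM at 10 ng/mL. The 1 ng/mL libraries were the highest in every replicate. The fold change at 1 ng/mL was 1.25 (standard error 0.164, adjusted p = 0.0293 by edgeR), and it was 1.03 to 1.39 with 1 replicate left out. Between 1 and 10 ng/mL it was -1.29 (standard error 0.230, adjusted p = 0.179 by edgeR). The fitted fold changes of all 3 tested Y RNA genes were positive at 1 ng/mL against the vehicle, with a median of 0.88. At 10 against 1 ng/mL they were negative, with a median of -1.29. The pairs did not all follow. ENSBTAG00000042676 had 52, 7 and 52 counts with the vehicle, 35, 48 and 46 at 1 ng/mL and 66, 16 and 13 at 10 ng/mL (replicates 1, 2 and 3). Its 1 ng/mL value of 0.17 rested on replicate 2, and in replicate 1 its level rose from 1 to 10 ng/mL. In epithelial cells ENSBTAG00000043086 had 1.57 to 3.68 CPM at all doses. The 7SL copy ENSBTAG00000046888 had 43.8, 56.1 and 60.9 CPM with the vehicle and 59.8, 87.0 and 87.4 CPM at 1 ng/mL. It was higher in 3 of 3 pairs, by 0.56 (standard error 0.0610, adjusted p = 0.00702). In counts it had 501, 620 and 562 with the vehicle, 646, 1026 and 1083 at 1 ng/mL and 802, 562 and 539 at 10 ng/mL. It was not called at 10 ng/mL against the vehicle. The leading 7SL copy had an adjusted p of at least 0.688 in all 8 treatment comparisons.

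Between 10 and 1 ng/mL in stromal cells, 1 of 51 tested genes was called, and it was lower, where 0.0313% of all genes were called (0.0235% higher and 0.00783% lower). The 7SK copy ENSBTAG00000043639 had 96.7, 67.7 and 47.2 CPM at 1 ng/mL and 52.7, 36.0 and 36.9 CPM at 10 ng/mL. It was lower in 3 of 3 pairs, with overlapping groups, and its fold change was -0.75 (standard error 0.102, adjusted p = 0.0478 by edgeR). The call was lost without replicate 2 (-0.68) and with the size factors of DESeq2 (-0.75). In counts the gene had 493, 168 and 415 with the vehicle, 1044, 798 and 585 at 1 ng/mL and 696, 411 and 384 at 10 ng/mL. The 1 ng/mL library was thus the highest in each replicate, and the call does not show a level below the vehicle. At 1 ng/mL against the vehicle its fold change was 1.10, which was not called. At 10 ng/mL against the vehicle no gene of 50 was called in stromal cells (0% of all genes), with 6 at an unadjusted p under 0.05, against 356 of all 12779, and none by DESeq2. None of the 5 insulin calls was made without the replicate block, and DESeq2's Wald test kept those of ENSBTAG00000046888 and ENSBTAG00000043639. The insulin effect at 10 ng/mL was compared between cell types as well, and of 56 tested genes none differed (0% of all genes), with 5 at an unadjusted p under 0.05, against 563 of all 13904. All comparisons of doses with the vehicle share the vehicle libraries.

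**Figure D4:**
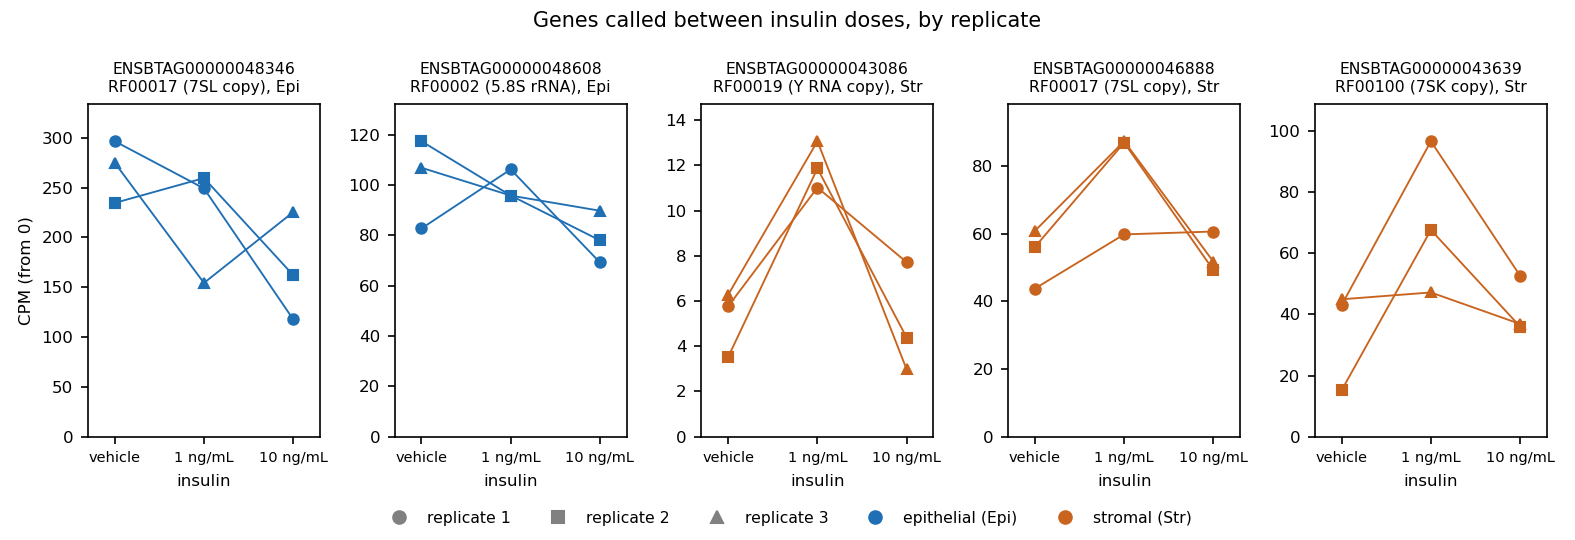
Level in CPM (vertical axes from 0) of the 5 genes called between insulin doses, in the cell type of the call, at the vehicle, 1 ng/mL and 10 ng/mL of insulin, with 1 line and marker shape for each replicate number. ENSBTAG00000043086 peaks at 1 ng/mL in each replicate (11.0 to 13.1 CPM), and ENSBTAG00000048346 is lower at 10 ng/mL than with the vehicle in each.

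The leading 7SK, RNase P and RNase MRP RNA genes were not called between treatments. Over the 8 treatment comparisons the fold changes of the 7SK gene ENSBTAG00000043250 lay between -0.07 and 0.15, with an adjusted p of at least 0.838. Those of the RNase P RNA gene ENSBTAG00000044427 lay between -0.25 and 0.13, with an adjusted p of at least 0.793, and those of the RNase MRP RNA gene ENSBTAG00000042458 between -0.16 and 0.11, with an adjusted p of at least 0.721 (edgeR). Leading genes of some coded families ranged further without passing the test, ENSBTAG00000048699 (RF01871) from -0.07 to 1.64, ENSBTAG00000052264 (RF01979) from -0.27 to 1.46 and ENSBTAG00000050793 (RF02166) from -0.96 to 0.39, with adjusted p of at least 0.734. The 7SK, RNase P and RNase MRP RNA genes together with the leading 7SL copy carried 89.9% of the reads of the 134 genes, and none of the 4 was called between treatments in the main design. Of the 38 genes called in any comparison, 33 were called between cell types alone and 5 between insulin doses.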

How the data were processed

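RNA of 30 samples was sequenced as single-end reads of 75 bases from a stranded total RNA kit. Per the study's methods, the authors trimmed the reads with Cutadapt, filtered them by quality, aligned them with Rsubread, kept uniquely mapped reads and counted them per gene with featureCounts on Ensembl release 96. The values used are the counts per gene as deposited, not normalized. The deposited DESeq2 tables gave the gene types and names, while their fold changes and p-values were not used.

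CPM was computed from all counted reads of a library. Each comparison was fitted on its 6 libraries and all genes with edgeR 4.0.16 in R 4.3.3 (TMM normalization, filterByExpr, quasi-likelihood test, replicate number as a block, as in the study's paired design), and differences of effects between cell types on 12 libraries. Genes were called at an adjusted p under 0.05 and a log2 fold change beyond 0.1. The alternatives were DESeq2 1.42.0 (total count of at least 10), its size factors, normalization on protein-coding genes, no filter, no block and each replicate left out. The main fit and DESeq2's test were also run on simulated data for some of the comparisons. No library was left out of these runs, and none was simulated with a deviation of its own. Those runs do not bear on calls that depended on single replicates or on the block.

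Same-numbered libraries deviated together in the 8 treatment comparisons (lowest correlation 0.193) and in 3 cell type comparisons, while at 5 mM glucose and 10 ng/mL the lowest correlations were 0.0363 and 0.0629. No 2 libraries were identical. Totals were 8826470 to 16647701 counted reads, and intervals and floors cover counting error only, since reads without molecular identifiers are not independent molecules.

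The genes described and the lists of partner and marker genes were chosen with earlier results of these data known. The text names the 10 genes with the highest mean CPM, the leading gene of each family with at least 10 counts in at least 3 libraries, and the 20 genes called in most comparisons. Further called 7SK and Y RNA copies and ENSBTAG00000049773 were added after their values were seen. Of 27607 genes, 10139 have no gene type and at most 33 counts over all libraries. A gene that the rule names is not reported here. No sequences or coordinates were used here.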

Additional observations from a re-analysis of the deposited data

Results flagged for a closer look

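Among 52 combinations of 13 genes and treatment contrasts, 2 showed every pair of libraries moving one way in epithelial cells and the opposite way in stromal cells. If directions fell at random, 3.125% of combinations would do so. The RNase P RNA gene ENSBTAG00000044427 was lower at 50 mM than at 5 mM glucose in each epithelial pair (log2 ratios of CPM from -0.64 to -0.06, mean -0.256) and higher in each stromal pair (0.08 to 0.25, mean 0.192), a difference of -0.448 between cell types. The epithelial pair of -0.64 holds the library of replicate 2 at 5 mM glucose that stood apart. That comparison of signs is not a test, and the edgeR test of the difference gave -0.38 with an adjusted p of 0.789. The 7SL copy ENSBTAG00000048346 was higher at 50 mM in each epithelial pair (0.03 to 0.18, mean 0.121) and lower in each stromal pair (-0.63 to -0.10, mean -0.300), a difference of 0.421, and the same test gave 0.49 with an adjusted p of 0.744. Neither difference passed the correction.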

How the results depend on the processing

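Of the 103 calls, 103 remained with normalization on protein-coding genes, 101 with the size factors of DESeq2, 100 without the filter, 89 with DESeq2's Wald test and 82 without the replicate block. Without replicate 1, 2 or 3, 64, 79 and 74 remained. None changed direction. The causes were not tested.

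Without the replicate block the counts of called genes became 0 for 10 ng/mL against the vehicle in epithelial cells and for 1 ng/mL against the vehicle and 10 against 1 ng/mL in stromal cells, and 3 between cell types at 50 mM glucose. The last of these treatment counts was also 0 with the size factors of DESeq2. Without the filter, the counts were 4 (1 ng/mL against vehicle), 5 (10 ng/mL against vehicle) and 8 (10 against 1 ng/mL) in epithelial cells, where 22 of 19169, 49 of 19138 and 30 of 19056 genes were called in all, and 9 (1 ng/mL against vehicle) and 11 (10 against 1 ng/mL) in stromal cells, where 156 of 18890 and 165 of 18937 were. DESeq2's Wald test gave 1 for glucose and 1 for 1 ng/mL against the vehicle in stromal cells, 0 for 10 ng/mL against the vehicle in epithelial cells and 12 between cell types at 5 mM glucose. Over all genes it called 201 of 16387 for glucose in stromal cells and 0 of 15461 for 10 ng/mL in epithelial cells. With 1 replicate left out, the epithelial counts were 0 to 1 for glucose, 1 to 4 for 1 ng/mL and 5 to 8 for 10 ng/mL against the vehicle, and 1 to 4 for 10 against 1 ng/mL, and the stromal counts 2 to 8, 0 to 3 and 1 to 8 for the 3 insulin comparisons in that order. Between cell types they were 3 to 9 at 5 mM, 0 to 8 at 50 mM, 12 to 20 with the vehicle and 20 to 23 at 10 ng/mL.

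Fold changes near 0 between cell types changed sign. At 50 mM glucose, ENSBTAG00000043250 was -0.0079 with the size factors of DESeq2, -0.0022 with DESeq2, -0.025 without the replicate block and -0.15 to 0.11 with 1 replicate left out. The left-out ranges of ENSBTAG00000044427 were -0.26 to 0.31 at 5 mM, -0.081 to 0.20 with the vehicle, -0.081 to 0.11 at 1 ng/mL and -0.14 to 0.092 at 10 ng/mL, that of ENSBTAG00000049916 -0.59 to 0.80 at 5 mM, and that of ENSBTAG00000042458 -0.35 to 0.0062 at 50 mM. ENSBTAG00000048608 was 0.00023 with normalization on protein-coding genes, 0.0034 without the filter and 0.091 without the replicate block at 50 mM, and -0.043 without the block at 10 ng/mL, with left-out ranges of -1.36 to 0.28 at 5 mM, -0.21 to 0.37 at 50 mM, -0.11 to 0.15 at 1 ng/mL and -0.34 to 0.52 at 10 ng/mL. Depth limits the genes with few counts.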
